A study of Mus musculus with 41 samples.

Results

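The 32 genes described here are an endometrial epithelium list: keratins, junction and cell-surface proteins, secreted proteins, transcription factors, splicing factors and proteases of simple columnar epithelium. They were taken by name from the deposited table of raw counts. A row was found for 32 of 32, among 21249 genes in 41 RNA sequencing libraries. The list was drawn up with earlier results of these data known, so this does not show which epithelial genes the table lacks. Each library is 1 endometriosis lesion from a mouse model in which a uterine punch biopsy of 4 mm was glued to the peritoneal wall of a recipient mouse. Mice were 12 to 16 weeks old. From day 7, 3 intraperitoneal injections of 1 ug interleukin-33 (IL-33), or of PBS, were given over 6 days. The study asked how group 2 innate lymphoid cells (ILC2s) act in such lesions.

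ILC2-deficient mice carried Nmur1iCre-eGFP together with Id2fl/fl, and are called deficient below. In these mice a Cre recombinase driven from the Nmur1 locus, a gene used mostly by ILC2s, deletes Id2. The lesion groups from deficient mice were IL-33 with 250000 transferred ILC2s (n = 4), IL-33 with an added PBS injection (n = 4), IL-33 with 120000 transferred ILC2s (n = 2) and IL-33 alone (n = 4). ILC2s were injected on the day before IL-33. Fragments were also exchanged, with Nmur1iCre-eGFP fragments placed in deficient hosts (n = 4) or the reverse, a deficient fragment in an Nmur1iCre-eGFP host (n = 4). ILC2-competent groups were C57Bl/6J wild type given IL-33 and 120000 ILC2s (n = 3), C57Bl/6J given IL-33 (n = 4), Nmur1iCre-eGFP given IL-33 (n = 4, the Cre controls) and Id2fl/fl given IL-33 (n = 4, the floxed controls). Deficient mice given PBS in place of IL-33 (n = 4) completed the set. The genotype label names the fragment. Outside the fragment exchange the recipient was taken to have the same genotype, since the labels name 1 genotype for each lesion. They also do not say whether replicates came from separate mice, and p-values then refer to the spread among libraries of a group.

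Endometrial epithelium lines the uterine lumen and forms the glands, and in endometriosis it grows with its stroma outside the uterus. It is a simple epithelium: keratin filaments tie its cells together, E-cadherin and claudins seal them, and the apical face carries mucins. Its identity is kept by ETS, grainyhead-like and paired-box transcription factors and by epithelial splicing regulators. The rest of a lesion is stroma, smooth muscle, vessels, immune cells and host tissue at the graft site, where most of these genes are at low level.

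Libraries held 28884926 to 70526624 counts (median 42906356), and no 2 libraries of a group agreed within counting noise. In 4 libraries a list of 14 hepatocyte genes took over 1% of the counts, against at most 0.0833% in the other 37. These were deficient IL-33 replicate 2 (2.59%), wild type with ILC2s replicate 3 (10.5%), wild type replicate 4 (6.22%) and Cre control replicate 3 (6.05%). They are called the liver-transcript libraries below, and several results are given with and without them. Summed levels are given for all genes of the list, including those that liver also uses. Genes of skeletal muscle, the tissue next to the graft, took 0.00461% to 5.42% of the counts.

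The amount of epithelial transcript differed 79.9-fold between lesions. The 32 genes summed to between 56.7 and 4536 CPM (counts per 1000000, with libraries scaled by the trimmed mean of M values), with a median of 548. In shares, this was 0.00482% to 0.504% of a library's counts. Fewer epithelial cells and less RNA per epithelial cell cannot be told apart in bulk samples.

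Lesions of one group spanned most of that range. The summed level, in replicate order, was 548, 291, 126.1 and 1085 CPM with 250000 ILC2s and 56.7, 59.8, 276 and 102 CPM with added PBS. It was 2944 and 1221 CPM with 120000 ILC2s and 1301, 863, 667 and 4536 CPM with IL-33 alone in deficient mice. Nmur1iCre-eGFP fragments in deficient recipients had 62.3, 402, 3581 and 496 CPM, and deficient fragments in Nmur1iCre-eGFP recipients had 102, 177, 755 and 433 CPM. So the lesion with the third-lowest sum and the lesion with the second-highest sum were both in the first of these exchange groups. In competent mice the sum was 805, 337 and 976 CPM for wild type with ILC2s and 97.0, 208, 411.1 and 442 CPM for wild type. The lesions at 976 and 442 CPM are liver-transcript libraries. Krt8 and Krt18, which hepatocytes also use, were 171 and 199.6 CPM in the former and 56.1 and 91.5 CPM in the latter. The Cre controls had 583, 418, 1194 and 834 CPM and the floxed controls 640.3, 2346, 93.4 and 638 CPM. PBS-treated deficient mice had 625, 628, 198 and 635 CPM, with 3 lesions close together and 1 lower. The mean log2 CPM over the genes had an SD of 1.86 over all 41 libraries and 1.64 within groups, so most of the spread lay between lesions of the same group.

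**Figure D1:**
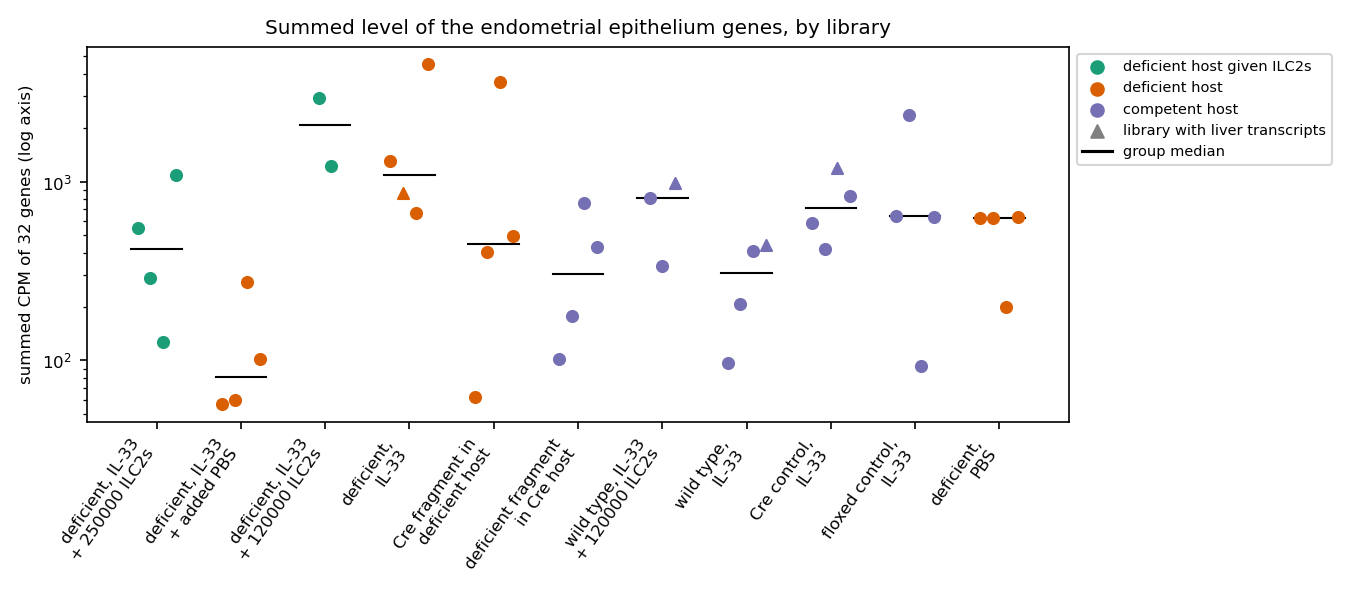
Summed CPM of the 32 genes (y axis, log scale) in each of the 41 libraries, by group, with the group median as a bar and liver-transcript libraries as triangles. The 4 added-PBS lesions lie between 56.7 and 276 CPM, below the 4 deficient IL-33 lesions at 667 to 4536 CPM.

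On the mean log2 scale some lesions stood apart as poor in epithelium. In 9 libraries the mean log2 CPM was at most 0.73, and the next library stood at 1.90. The summed CPM showed no such gap, since the highest of the 9 had 177 CPM and the next library 198 CPM. These 9 lay in 6 groups: added PBS replicates 1, 2 and 4, 250000 ILC2s replicate 3, Nmur1iCre-eGFP fragment in deficient recipient replicate 1, deficient fragment in Nmur1iCre-eGFP recipient replicates 1 and 2, wild type replicate 1 and floxed control replicate 3. They are listed by their values and are not a group of the study. The skeletal muscle list and the mean of the 32 genes ran in opposite directions over the libraries (median r of its 11 genes -0.41), which is a description, since the lists share the total of each library. The part of host muscle in the epithelial sum was not tested.

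The genes moved as a block. For 25 of the 32, log2 CPM correlated at r of 0.9 or more over the 41 libraries with the mean of the other 31, and the highest was Grhl2 (r = 0.98). These points share library depth and scaling, so the coefficient describes the pattern and carries no p. Without the 4 liver-transcript libraries the count was 27. The genes outside the list with the most similar pattern were Cdcp1 (r = 0.98), Arhgef38 (r = 0.98), Epn3 (r = 0.98), Dlx6 (r = 0.98) and Fut2 (r = 0.98). The next 10 were Atp10b, Slc28a3, Tspan1, Plet1, Dlx5, Cblc, Cxcl17, Gm13648, Plch1 and Bspry, all at r of about 0.97 to 0.98, and 139 of 21217 other genes reached 0.9.

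The label was checked with markers of uterine and other epithelia. Of 12 genes of uterine lumen and glands, 5 followed the list at r of 0.9 or more, among them Ltf, lactoferrin (r = 0.96), Sprr2f (r = 0.95), and the ligands Wnt7b (r = 0.94) and Wnt7a (r = 0.90). Of 16 further junction genes, 3 did so, and of 10 ciliated-cell, 8 stratified, 4 gut and 11 mesothelial genes, none did. The uterine genes that followed least were Lpar3 (r = 0.67), Klf5 (r = 0.53), Lgr5 (r = 0.18) and Slpi (r = -0.38). Some lists were cut by missing rows: 12 of 16 uterine, 10 of 13 ciliated-cell, 8 of 13 stratified and 4 of 9 gut genes were measured. Foxj1, the regulator of ciliated cells, was at most 1.5 CPM. Foxa2, which in mouse uterus marks glands and not the lumen, is a member and was close to 0 in the libraries without liver transcripts, as given below. The list is described as uterine epithelium on the uterine genes that followed it, and no split into gland and lumen is made.

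**Figure D2:**
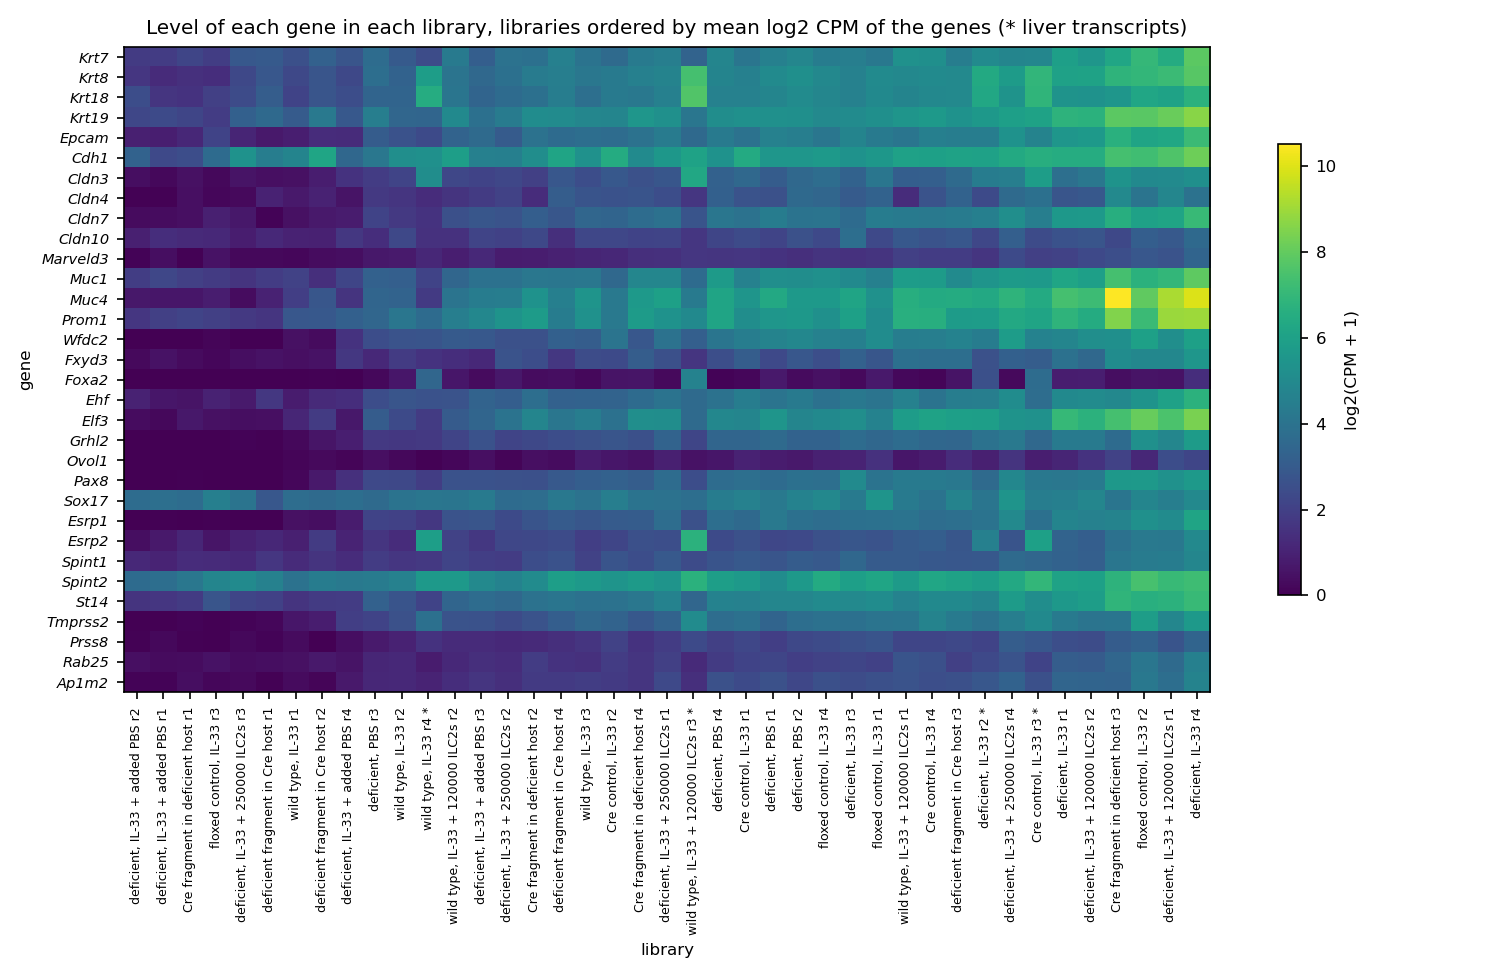
Level of each of the 32 genes (rows, log2 of CPM + 1 as colour) in each library (columns, ordered from low to high mean log2 CPM, liver-transcript libraries marked with an asterisk). The columns darken together on the left, where 9 libraries have a mean of at most 0.73, while Sox17 and Spint2 keep colour throughout. Foxa2 is brighter in the 4 marked columns than in the other columns.

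Promoters of some members are shown because the genes move together. Of the 32 members, 21 had an entry in the RefSeq promoter table (GRCm38.p6), and the 250 bases before each start were searched on both strands. The E-box CACCTG, which reads CAGGTG on the other strand and is a letter pattern bound by repressors such as Zeb1 and Snai2 in epithelial genes, was in 13 of 21 members (61.9%), against 5252 of 27025 genes (19.4%). GGGCGG, the GC box, was in 61.9% of the members against 35.4% of all genes. AACNNGTT, a grainyhead-like pattern, was in 14.3% against 4.11%, CAGGAAGT, an ETS pattern, in 9.52% against 3.13%, and TGTTTAC, a forkhead pattern, in 0% against 3.54%. Of 23 E-box matches in the members' promoters, 0 overlapped a match of another pattern. These matches describe letters and are not shown to be sites. Over the 41 libraries, Zeb1 had r of -0.12 and Snai2 r of 0.43 with the mean of the 32 genes. Any part of these repressors in the common pattern was not tested. The 4 promoters below belong to genes whose values are given in every library or, for Cldn4, to a gene with an E-box next to its start. Capitals mark the E-box.
Krt7, chr15:101412153-101412402, plus strand: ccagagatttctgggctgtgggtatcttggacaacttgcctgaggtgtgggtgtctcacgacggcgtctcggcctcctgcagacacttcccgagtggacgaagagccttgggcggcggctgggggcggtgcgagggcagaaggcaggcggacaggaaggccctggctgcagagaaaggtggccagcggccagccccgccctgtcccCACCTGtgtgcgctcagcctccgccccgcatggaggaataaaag
Krt8, chr15:102004343-102004592, minus strand: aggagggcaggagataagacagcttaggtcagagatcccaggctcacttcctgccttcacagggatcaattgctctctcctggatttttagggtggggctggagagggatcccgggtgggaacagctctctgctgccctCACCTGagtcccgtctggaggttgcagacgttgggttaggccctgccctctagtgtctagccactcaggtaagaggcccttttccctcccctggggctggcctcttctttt
Epcam, chr17:87635729-87635978, plus strand: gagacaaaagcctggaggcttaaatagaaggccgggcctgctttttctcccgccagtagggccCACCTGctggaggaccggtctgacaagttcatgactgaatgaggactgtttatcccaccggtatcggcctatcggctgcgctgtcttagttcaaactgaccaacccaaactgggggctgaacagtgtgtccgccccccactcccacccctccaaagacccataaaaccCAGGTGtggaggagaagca
Cldn4, chr5:134946935-134947184, minus strand: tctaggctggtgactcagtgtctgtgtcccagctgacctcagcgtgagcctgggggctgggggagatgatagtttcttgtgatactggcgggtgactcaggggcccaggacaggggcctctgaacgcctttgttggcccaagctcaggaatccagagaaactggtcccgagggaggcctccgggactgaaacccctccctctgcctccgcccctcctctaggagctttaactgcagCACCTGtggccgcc
The E-box starts 44 bases before the RefSeq start of Krt7, 111 before that of Krt8 and 14 before that of Cldn4. Epcam has 2, starting 187 and 19 bases before its RefSeq start, the second on the other strand. GENCODE M21 places the first base of Krt7 at 101411043 and that of Krt8 at 102004482. By that annotation the E-boxes of Krt7 and Krt8 lie inside the genes. For Epcam and Cldn4 the RefSeq and GENCODE starts are the same. Krt8 and Krt18, which pair into one filament, are neighbours on chromosome 15, 23.7 kb apart, with Krt7 566 kb from Krt8. Cldn3 and Cldn4 lie 39.3 kb apart on chromosome 5.

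Keratins form the filaments of simple epithelia: type II Krt7 and Krt8 pair with type I Krt18 and Krt19. Krt7 (ENSMUSG00000023039.17) lies at chr15:101411043-101430313 on the plus strand and Krt19 (ENSMUSG00000020911.14) at chr11:100140810-100148665 on the minus strand (GRCm38, GENCODE M21). Per kilobase of exon, Krt19 had the highest median level of the 32 genes, at 17.8 CPM per kb, and Krt18 the second, at 16.3. Below, values in a group follow the replicate number.

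Krt7 spanned 2.54 to 235 CPM. In deficient mice it had 21.8, 14.4, 6.53 and 26.9 CPM with 250000 ILC2s, 2.70, 2.54, 7.84 and 5.76 CPM with added PBS, 88.1 and 45.6 CPM with 120000 ILC2s and 59.5, 31.3, 21.6 and 235 CPM with IL-33 alone. The 250000-ILC2 lesion at 6.53 CPM was the single lesion of the other 3 groups within the added-PBS range. Krt7 had 3.65, 13.9, 72.7 and 18.4 CPM in Nmur1iCre-eGFP fragments in deficient recipients and 6.91, 8.59, 20.7 and 23.0 CPM in the reverse exchange. Competent mice had 39.5, 19.1 and 9.06 CPM (wild type with ILC2s), 4.98, 6.79, 15.2 and 4.50 CPM (wild type), 16.0, 11.5, 27.7 and 36.4 CPM (Cre controls) and 17.5, 127, 2.81 and 20.4 CPM (floxed controls), and PBS-treated deficient mice had 22.7, 27.0, 12.2 and 26.2 CPM. Floxed control replicate 2, at 127 CPM, overlapped the deficient IL-33 lesions.

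Krt19, the smallest keratin, spanned 2.65 to 398 CPM. Its levels in deficient mice were 38.2, 20.02, 8.31 and 60.1 CPM with 250000 ILC2s, 4.09, 3.78, 13.7 and 6.49 CPM with added PBS, 274 and 105 CPM with 120000 ILC2s and 111, 47.4, 32.8 and 398 CPM with IL-33 alone. Exchanged fragments had 3.52, 33.8, 229.5 and 44.6 CPM in deficient recipients and 10.9, 18.3, 40.1 and 33 CPM in Nmur1iCre-eGFP recipients. The lesions ranked much as for Krt7. Krt19 in competent mice stood at 43.2, 30.4 and 16.5 CPM for wild type with ILC2s, 7.17, 10.03, 27.1 and 9.80 CPM for wild type, 37.3, 26.5, 65.6 and 48.5 CPM for Cre controls and 36.8, 228, 2.65 and 30.2 CPM for floxed controls. Deficient mice given PBS had 37.6, 36.5, 21.6 and 34.8 CPM.

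Krt8 spanned 1.42 to 220.5 CPM. Deficient mice had 24.7, 13.8, 3.92 and 53 CPM of Krt8 with 250000 ILC2s, 1.42, 2.17, 10.6 and 3.82 CPM with added PBS, 143 and 65.6 CPM with 120000 ILC2s and 63.8, 83.3, 23.4 and 220.5 CPM with IL-33 alone. Krt8 was at 1.71, 19.8, 113 and 22.7 CPM in exchanged fragments in deficient recipients and 6.17, 5.87, 30.1 and 21.6 CPM in Nmur1iCre-eGFP recipients. For competent mice, Krt8 was 28.7, 15.7 and 171 CPM in wild type with ILC2s, 3.84, 8.79, 17.1 and 56.1 CPM in wild type, 22.7, 18.6, 121 and 32 CPM in Cre controls, 32.1, 124, 1.62 and 29.2 CPM in floxed controls, and it was 31.3, 36.8, 13.0 and 25.9 CPM in PBS-treated deficient mice. Wild type replicate 4 and wild type with ILC2s replicate 3, both liver-transcript libraries, stood well above the others of their groups, at 56.1 and 171 CPM. Hepatocytes also use Krt8 and Krt18, and these 2 keratins were above the rest of their group in 3 of the 4 liver-transcript libraries.

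Krt18 spanned 1.91 to 200 CPM and was highest in a liver-transcript library, wild type with ILC2s replicate 3. In lesions of deficient mice, Krt18 had 22.6, 11.9, 4.30 and 41.4 CPM with 250000 ILC2s, 2.05, 4.56, 9.47 and 4.55 CPM with added PBS, 65.0 and 40.4 CPM with 120000 ILC2s and 41.8, 78.1, 23.4 and 103.6 CPM with IL-33 alone. Krt18 in exchanged fragments was 1.92, 13.8, 44.6 and 17.3 CPM in deficient recipients and 7.67, 5.89, 29.8 and 21 CPM in Nmur1iCre-eGFP recipients. Competent lesions had 25.4, 15.8 and 199.6 CPM of Krt18 (wild type with ILC2s), 3.36, 9.56, 13.4 and 91.5 CPM (wild type), 23.5, 18.9, 117 and 29.0 CPM (Cre controls) and 30.4, 73.2, 2.93 and 27.2 CPM (floxed controls), and PBS-treated deficient lesions 26.6, 32.9, 9.49 and 23.6 CPM. Its r with the other genes was 0.87 over all libraries and 0.97 without the liver-transcript libraries.

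Adhesion and tight junction genes were Epcam, Cdh1, Cldn3, Cldn4, Cldn7, Cldn10 and Marveld3. Epcam, the epithelial cell adhesion molecule, followed the list closely (r = 0.97). It had 19.7, 7.10, 1.16 and 40.5 CPM with 250000 ILC2s, 0.861, 0.895, 11.5 and 1.47 CPM with added PBS, 76.8 and 49.6 CPM with 120000 ILC2s and 45.7, 20.7, 26.0 and 145 CPM with IL-33 alone in deficient mice. Epcam was 1.25, 14.7, 100.2 and 14.8 CPM in exchanged fragments in deficient recipients and 0.655, 1.52, 20.9 and 11.9 CPM in Nmur1iCre-eGFP recipients. Epcam in competent mice was 16.0, 9.22 and 11 CPM (wild type with ILC2s), 0.839, 5.29, 13.1 and 4.18 CPM (wild type), 14.7, 12.1, 25.3 and 22.4 CPM (Cre controls) and 18.7, 69.3, 3.37 and 16.6 CPM (floxed controls), against 23.5, 21.8, 7.29 and 18.5 CPM in PBS-treated deficient mice. No lesion lay between 3.37 and 4.18 CPM.

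Cdh1, which encodes E-cadherin, kept a level in some lesions where the mean of the list was low. It had 45.8, 22.1, 39.7 and 83.2 CPM with 250000 ILC2s, 3.98, 8.95, 22.8 and 10.4 CPM with added PBS, 195 and 90.1 CPM with 120000 ILC2s and 89.0, 63.4, 40.5 and 295 CPM with IL-33 alone in deficient mice. Cdh1 was 4.54, 34.5, 169 and 31.4 CPM in exchanged fragments in deficient recipients and 20.9, 72.1, 65.0 and 70.0 CPM in Nmur1iCre-eGFP recipients. Among the 9 lesions with a low mean, Cdh1 was 39.7 CPM with 250000 ILC2s, 3.98, 8.95 and 10.4 CPM with added PBS, 4.54 CPM in the fragment in a deficient recipient, 20.9 and 72.1 CPM in the fragments in Nmur1iCre-eGFP recipients, 25.7 CPM in wild type and 11.8 CPM in the floxed control. The mean log2 CPM of the list was -0.98 in the lesion with 3.98 CPM of Cdh1 and 0.57 in the lesion with 72.1 CPM. Cdh1 was 63.3, 59.3 and 65.9 CPM in wild type with ILC2s, 25.7, 36.0, 38.9 and 37.7 CPM in wild type, 86.0, 87.2, 94.8 and 62.8 CPM in Cre controls, 46.5, 154.5, 11.8 and 49.7 CPM in floxed controls and 45.3, 45.3, 16.8 and 39.8 CPM in PBS-treated deficient mice. Its r with the other genes was 0.84 over 41 libraries. Whether these lesions held another cell type with Cdh1 was not tested.

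Cldn10, a claudin that forms ion pores, varied little, from 0.806 to 13.0 CPM, with r of 0.86 and a slope of 0.44 on the mean of the others. Cldn10 had 3.40, 3.15, 0.806 and 8.11 CPM with 250000 ILC2s, 1.57, 0.924, 3.52 and 2.22 CPM with added PBS, 6.74 and 5.80 CPM with 120000 ILC2s and 5.31, 3.71, 13.0 and 11.1 CPM with IL-33 alone in deficient mice. It had 1.40, 3.88, 3.83 and 3.32 CPM in exchanged fragments in deficient recipients and 1.34, 0.939, 6.22 and 1.67 CPM in Nmur1iCre-eGFP recipients. The highest lesion, deficient IL-33 replicate 3, was not one of those with the most epithelial transcript. Cldn10 was 6.43, 1.86 and 2.17 CPM in wild type with ILC2s, 1.02, 3.92, 3.78 and 1.84 CPM in wild type, 4.36, 3.78, 4.23 and 5.54 CPM in Cre controls, 4.01, 7.73, 1.33 and 4.05 CPM in floxed controls and 3.48, 5.06, 1.56 and 3.61 CPM in PBS-treated deficient mice. The claudins Cldn7 (0.0819 to 133.8 CPM, r = 0.97), Cldn3 (0.164 to 77.3 CPM, r = 0.92) and Cldn4 (0.0297 to 29.6 CPM, r = 0.92) ranged more widely, as did Marveld3, a transmembrane tight junction protein (0.0511 to 9.51 CPM, r = 0.97). Cldn3 reached 41.5 CPM outside the liver-transcript libraries, and its r was 0.98 without them.

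Apical and secreted genes were Muc1, Muc4, Prom1, Wfdc2 and Fxyd3. Muc4, a membrane mucin of the apical face, had the widest range of the genes never at 0, from 0.269 to 1463 CPM. It had 61.4, 21.2, 0.269 and 112.5 CPM with 250000 ILC2s, 0.534, 0.606, 20.6 and 2.02 CPM with added PBS, 582 and 146 CPM with 120000 ILC2s and 169, 80.8, 69 and 982 CPM with IL-33 alone in deficient mice. Muc4 was 0.536, 40.3, 1463 and 50.4 CPM in exchanged fragments in deficient recipients and 1.01, 6.01, 87.8 and 22.4 CPM in Nmur1iCre-eGFP recipients. The fragment at 1463 CPM and floxed control replicate 2 at 243 CPM had nearly the same Krt19, 230 and 228 CPM. Competent mice had 95.4, 15.4 and 18.9 CPM of Muc4 (wild type with ILC2s), 2.90, 9.14, 42.8 and 2.42 CPM (wild type), 43.6, 17.8, 86.0 and 84.5 CPM (Cre controls) and 38.6, 243, 0.796 and 51.1 CPM (floxed controls), and PBS-treated deficient mice 79.4, 50.1, 9.70 and 70.4 CPM. Across lesions Muc4 had a slope of 1.57 on the mean of the others (r = 0.96), and only Wfdc2 (1.70), Pax8 (1.60) and Esrp1 (1.59) were steeper.

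Wfdc2, a secreted protease-inhibitor-like protein also known as HE4 in human work, was at 0 counts in 5 libraries, where up to 3 counts, or 0.0766 to 0.0890 CPM, cannot be told from 0. With 250000 ILC2s it had 14.6, 5.11, 0 and 54.5 CPM, with added PBS 0, 0, 6.45 and 1.87 CPM, with 120000 ILC2s 35.8 and 35.7 CPM and with IL-33 alone 26.9, 20.4, 21.9 and 61.9 CPM in deficient mice. Wfdc2 was 0, 5.05, 36.3 and 6.23 CPM in exchanged fragments in deficient recipients and 0, 0.235, 24.1 and 8.31 CPM in Nmur1iCre-eGFP recipients. The 2 highest lesions had nearly the same Wfdc2, 61.9 and 61.2 CPM, although their summed levels were 4536 and 2346 CPM. Wfdc2 in competent mice was 20.9, 6.89 and 8.07 CPM (wild type with ILC2s), 0.382, 5.48, 7.53 and 5.71 CPM (wild type), 21, 15.7, 24.3 and 21.3 CPM (Cre controls) and 33.3, 61.2, 0.0937 and 23.7 CPM (floxed controls), and it was 24.9, 28.4, 4.64 and 16.2 CPM in PBS-treated deficient mice. Muc1, a mucin and a marker of uterine lumen (1.67 to 237 CPM), Prom1, a protein of apical protrusions (2.10 to 501 CPM), and Fxyd3, a regulator of the sodium pump (0.141 to 45.5 CPM), followed the list at r of 0.94, 0.96 and 0.95.

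**Figure D3:**
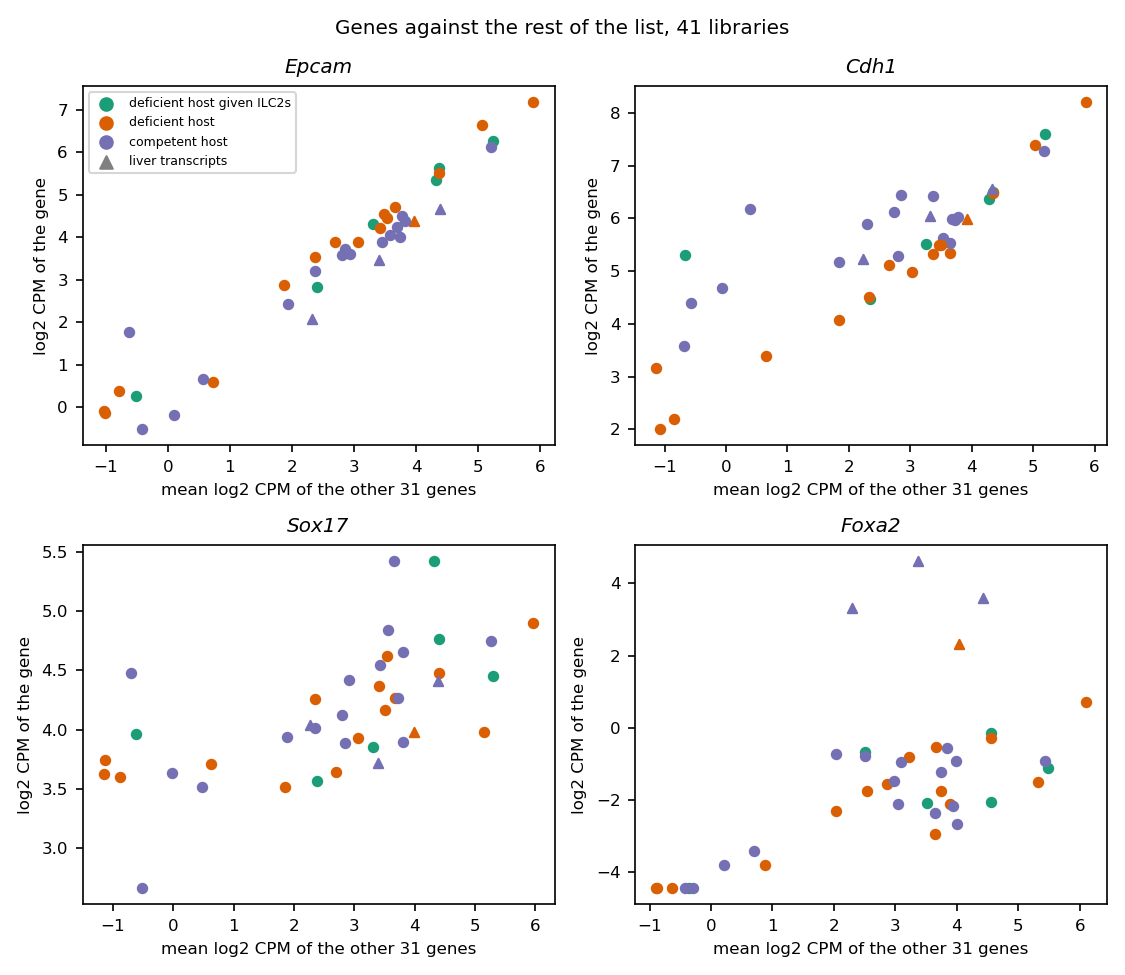
Log2 CPM of Epcam, Cdh1, Sox17 and Foxa2 (y axes) against the mean log2 CPM of the other 31 genes (x axes), 1 point per library, coloured by host and with liver-transcript libraries as triangles. Epcam follows the mean (r = 0.97), Cdh1 less closely (r = 0.84), Sox17 stays between 6.31 and 42.7 CPM (r = 0.62), and Foxa2 is high in the 4 triangles (r = 0.61).

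Transcription factors were Foxa2, Ehf, Elf3, Grhl2, Ovol1, Pax8 and Sox17. Foxa2, the forkhead factor of uterine glands and also of liver, departed most from the list over all 41 libraries (SD of its difference from the mean of the others 1.82 on the log2 scale). Without the liver-transcript libraries its SD was 1.11, below those of Sox17 (1.68) and Wfdc2 (1.66). In deficient mice Foxa2 was 0.191, 0.580, 0 and 0.196 CPM with 250000 ILC2s, 0, 0, 0.251 and 0.0253 CPM with added PBS, 0.416 and 0.860 CPM with 120000 ILC2s and 0.775, 4.93, 0.187 and 1.61 CPM with IL-33 alone. Foxa2 was 0, 0.292, 0.304 and 0.528 CPM in exchanged fragments in deficient recipients and 0, 0.0469, 0.484 and 0.314 CPM in Nmur1iCre-eGFP recipients. The lesion at 4.93 CPM is the liver-transcript library of the deficient IL-33 group. Foxa2 was 0.176, 0.535 and 24.4 CPM in wild type with ILC2s, 0.0254, 0.553, 0.185 and 10 CPM in wild type, 0.147, 0.469, 12.0 and 0.113 CPM in Cre controls, 0.626, 0.481, 0 and 0.384 CPM in floxed controls and 0.648, 0.248, 0.154 and 0.0828 CPM in PBS-treated deficient mice. It was the single member above the rest of its group in all 4 liver-transcript libraries, at 4.93 to 24.4 CPM, and it was at most 1.61 CPM in the other 37. Without those 4 its r with the other genes was 0.83, against 0.61 with them.

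Sox17, a factor of Müllerian epithelium that vessels also use, changed least. It was never below 6.31 CPM, and its range was 6.77-fold against 79.9-fold for the sum. It had 14.4, 11.8, 15.6 and 42.7 CPM with 250000 ILC2s, 13.3, 12.3, 19.0 and 13.0 CPM with added PBS, 21.8 and 27.2 CPM with 120000 ILC2s and 22.3, 15.8, 19.2 and 29.7 CPM with IL-33 alone in deficient mice. Sox17 was 12.1, 12.4, 15.8 and 15.2 CPM in exchanged fragments in deficient recipients and 6.31, 11.4, 25.1 and 17.4 CPM in Nmur1iCre-eGFP recipients. Lesions poor in the other genes, such as the added-PBS ones, had Sox17 close to that of lesions rich in them. Sox17 was 19.2, 16.1 and 13.1 CPM in wild type with ILC2s, 12.4, 15.2, 14.7 and 16.4 CPM in wild type, 23.3, 21.3, 21.2 and 14.8 CPM in Cre controls, 42.7, 26.8, 22.3 and 28.6 CPM in floxed controls and 17.9, 24.6, 11.4 and 20.6 CPM in PBS-treated deficient mice. The slope on the mean of the others was 0.17. The 12 endothelial genes took 0.0763% to 0.0896% of counts with added PBS and 0.0694% to 0.0791% with IL-33 alone, and their part in the level of Sox17 was not tested.

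Pax8, the paired-box factor of Müllerian duct epithelium, behaved in the opposite way, with a slope of 1.60 (r = 0.96). In deficient mice Pax8 was 12.1, 5.05, 0 and 28.2 CPM with 250000 ILC2s, 0, 0, 5.30 and 1.77 CPM with added PBS, 39.2 and 18.8 CPM with 120000 ILC2s and 16.9, 11.3, 31.5 and 49.8 CPM with IL-33 alone. Pax8 was 0.0510, 4.91, 47.4 and 7.54 CPM in exchanged fragments in deficient recipients and 0.0273, 0.634, 17.3 and 6.74 CPM in Nmur1iCre-eGFP recipients. It was at 0 in 3 libraries. Pax8 was 19.0, 5.24 and 4.66 CPM in wild type with ILC2s, 0.153, 3.85, 7.86 and 2.74 CPM in wild type, 13.3, 8.55, 17.6 and 19.3 CPM in Cre controls, 15.2, 49.2, 0.0234 and 13.4 CPM in floxed controls and 11.8, 13.7, 3.96 and 12.0 CPM in PBS-treated deficient mice. The ETS factors Ehf (0.485 to 106.9 CPM, r = 0.97) and Elf3 (0.178 to 340 CPM, r = 0.97), the grainyhead-like factor Grhl2 (0 to 53.6 CPM, r = 0.98) and the zinc-finger factor Ovol1 (0 to 4.64 CPM, r = 0.93) kept to the block.

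Esrp1 and Esrp2 direct epithelial splicing, and they separated. Esrp1 had 12.6, 4.08, 0.0269 and 30.1 CPM with 250000 ILC2s, 0.0297, 0, 5.74 and 0.733 CPM with added PBS, 32.9 and 23.4 CPM with 120000 ILC2s and 25.9, 15.1, 13.6 and 69.9 CPM with IL-33 alone in deficient mice. Esrp1 was 0, 5.70, 25.3 and 7.25 CPM in exchanged fragments in deficient recipients and 0, 0.329, 13.2 and 7.20 CPM in Nmur1iCre-eGFP recipients. It was at 0 counts in 3 libraries. Esrp1 was 15.1, 5.39 and 5.12 CPM in wild type with ILC2s, 0.382, 3.06, 6.12 and 2.31 CPM in wild type, 11.2, 7.01, 13.6 and 12.5 CPM in Cre controls, 14, 37.4, 0.0469 and 12.7 CPM in floxed controls and 17.8, 13.7, 3.35 and 13.0 CPM in PBS-treated deficient mice.

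Esrp2 was never at 0, and its highest values were in liver-transcript libraries. In deficient mice Esrp2 was 4.77, 3.77, 0.968 and 5.68 CPM with 250000 ILC2s, 0.623, 0.318, 2.31 and 1.09 CPM with added PBS, 17.4 and 7.94 CPM with 120000 ILC2s and 9.19, 22.8, 6.06 and 29.6 CPM with IL-33 alone. Esrp2 was 1.17, 3.79, 14.2 and 4.99 CPM in exchanged fragments in deficient recipients and 1.23, 2.53, 6.09 and 4.35 CPM in Nmur1iCre-eGFP recipients. It was 7.11, 3.21 and 108 CPM in wild type with ILC2s, 0.915, 1.5, 2.85 and 58.8 CPM in wild type, 5.10, 3.61, 62.9 and 7.88 CPM in Cre controls, 5.39, 18.1, 0.515 and 5.04 CPM in floxed controls and 3.75, 4.02, 2.12 and 4.12 CPM in PBS-treated deficient mice. The 3 highest, 108, 62.9 and 58.8 CPM, were all liver-transcript libraries, and Esrp2 is known to act in hepatocytes. Without those libraries its r with the other genes was 0.95, against 0.78 with them.

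Membrane proteases and their inhibitors were St14, Prss8, Tmprss2, Spint1 and Spint2. St14 (matriptase, 1.99 to 136 CPM, r = 0.94) and Prss8 (prostasin, 0.0234 to 9.40 CPM, r = 0.96) act in one protease cascade at the epithelial surface, and Tmprss2 (0 to 57 CPM, r = 0.94) is a further serine protease. Their Kunitz inhibitors had flatter profiles: Spint1 ranged 26.0-fold with a slope of 0.59, and Spint2 14.6-fold with a slope of 0.46. Spint2 was never below 11.9 CPM. Of the genes of polarised traffic, Rab25, a small GTPase of apical recycling, ranged from 0.237 to 23.1 CPM (r = 0.96). Ap1m2, the epithelial clathrin adaptor subunit, ranged from 0.0546 to 24.8 CPM (r = 0.97). Gene overlaps limit some values. Among others, Muc4 overlaps Muc20, Esrp2 overlaps Nfatc3, Fxyd3 overlaps Lgi4, Prss8 overlaps Kat8 and Krt7 overlaps Gm671, each on the other strand. No source used here states the strand setting of the counting, so reads of such pairs cannot be told apart. Prom1 overlaps Gm42716 on the same strand, where a strand setting would not separate them.

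Deficient lesions given IL-33 alone had higher Krt7 and Krt19 than competent lesions given IL-33, and the other 30 members did not pass the test. The 4 deficient lesions given IL-33 alone summed to 1301, 863, 667 and 4536 CPM, against 97.0, 208, 411.1 and 442 CPM in wild type, 583, 418, 1194 and 834 CPM in Cre controls and 640.3, 2346, 93.4 and 638 CPM in floxed controls. Deficient lesions given IL-33 with added PBS were not in this comparison, and their levels were low. They summed to 56.7, 59.8, 276 and 102 CPM and had 2.70, 2.54, 7.84 and 5.76 CPM of Krt7. The direction is therefore that of the IL-33-alone group only. Krt7 rose by 2.15 ± 0.61 on the log2 scale (SE, edgeR quasi-likelihood test, adjusted p = 0.0212) and Krt19 by 2.05 ± 0.68 (edgeR, adjusted p = 0.0460). These 2 of 32 called members compare with 11% of all genes called, 6.24% higher and 4.72% lower, so the share called is not above the background. All 32 fitted fold changes were above 0, from 0.07 for Sox17 to 2.98 for Muc4, with a median of 1.46 against -0.01 over all genes, and 14 had an unadjusted p under 0.05. The members correlate with each other, so the 32 signs are not independent.

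By role, the median log2 fold change was 2.08 for the 5 apical and secreted genes, 1.76 for the 2 genes of polarised traffic, 1.74 for the 4 keratins, 1.48 for the 7 transcription factors, 1.16 for the 7 junction genes, 1.15 for the 2 splicing factors and 0.92 for the 5 proteases and inhibitors. Muc4 (2.98 ± 1.13), Prom1 (2.28 ± 0.83) and Elf3 (2.35 ± 1.04) had the largest values among those not called. No member had all 4 deficient lesions above all 12 competent lesions, against 1.3% of all genes. DESeq2 called 4 (Krt7, Krt19, Prom1 and Muc1), against 14.6% of genes by that tool. Both calls were lost with the replicate number as a block (0 called) and with only the groups compared in the fit (0 called). The result also leaned on single libraries. Without deficient replicate 4, 0 members were called, the median was 0.84, and the fold changes were 0.96 for Krt7 (edgeR, adjusted p = 0.493) and 0.87 for Krt19 (edgeR, adjusted p = 0.602). Without floxed control replicate 2, 8 were called, and Krt19 lost its call in 10 of the 16 fits that left out 1 library: deficient replicates 1 and 4, wild type replicates 1, 2 and 4, Cre control replicates 1, 2 and 4, and floxed control replicates 1 and 4. Without the liver-transcript libraries, 1 was called, Krt7. The liver list took 0.000253% to 2.59% of counts in deficient lesions, against 0.000277% to 6.22% in competent ones.

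**Figure D4:**
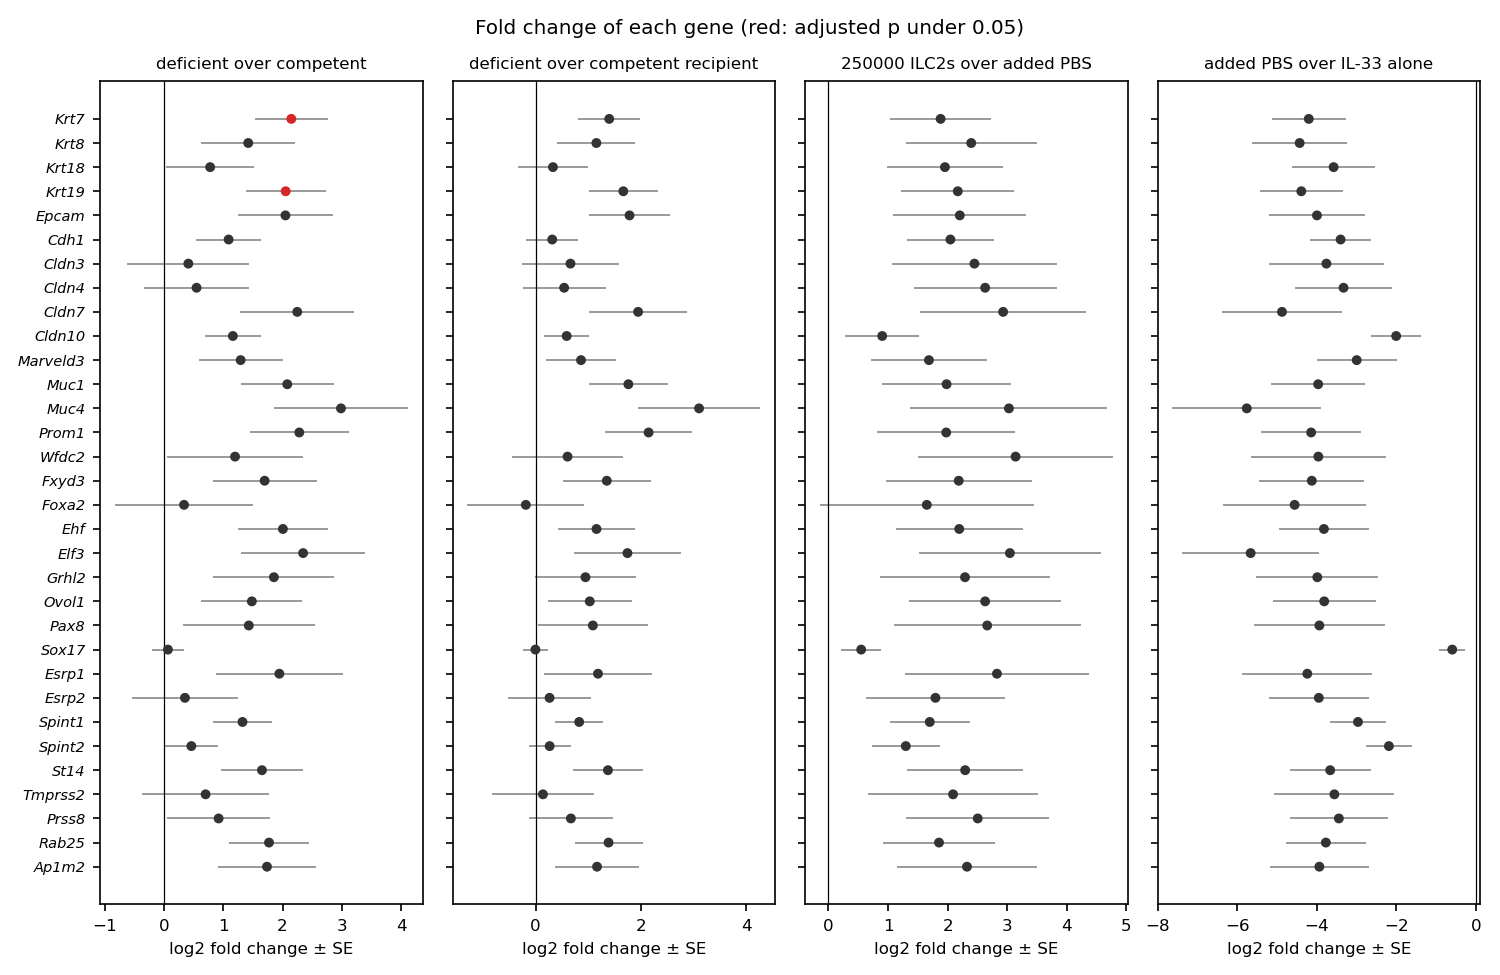
Log2 fold change of each gene (points) with its SE (bars) in 4 comparisons, red where the adjusted p is under 0.05. Krt7 and Krt19 are red in deficient over competent, and all 32 points are to the left of 0 for added PBS over IL-33 alone, where none is red.

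Recipient and fragment genotype were separated by the exchanged fragments. Lesions in deficient recipients (IL-33 alone and Nmur1iCre-eGFP fragments, 8 libraries) were set against lesions in Nmur1iCre-eGFP recipients (Cre controls and deficient fragments, 8 libraries). No member passed, against 11.3% of all genes (edgeR), 9 had an unadjusted p under 0.05, and DESeq2 called 3 (Krt19, Muc4 and Prom1), against 14.6% of genes by that tool. The median log2 fold change was 1.06, with 30 of 32 above 0, and Muc4 had the largest (3.11 ± 1.17, edgeR, adjusted p = 0.0822). Without deficient fragment in Nmur1iCre-eGFP recipient replicate 3, 2 members were called. Without Nmur1iCre-eGFP fragment in deficient recipient replicate 3, the median was 0.50, with 22 of 32 above 0. Without the liver-transcript libraries it was 1.25, with 32 of 32 above 0. For fragment genotype the median was 0.02, with 17 of 32 above 0. It had no settled sign: it was -0.56 (2 of 32 above 0) without deficient fragment in Nmur1iCre-eGFP recipient replicate 3 and 0.61 (30 of 32) without Nmur1iCre-eGFP fragment in deficient recipient replicate 3. There, no member passed by edgeR or DESeq2 and none had an unadjusted p under 0.05, against 0.00471% of all genes called by edgeR and 0.063% by DESeq2. The interaction of recipient and fragment called none either (edgeR, background 0.414%; DESeq2, background 1.66%). Its median was 2.22, with 32 of 32 above 0, so the fitted levels of the 2 unexchanged groups together exceeded those of the 2 exchanged groups. The median SE was 1.58. Without deficient replicate 4 the median was 1.39, and without replicate 3 of either exchange group it was 3.43 (deficient fragments) and 3.73 (Nmur1iCre-eGFP fragments). There were 5 members at an unadjusted p under 0.05, with Foxa2 at 6.62 ± 2.31 (edgeR, adjusted p = 0.146), a value that rests on the liver-transcript libraries.

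IL-33 alone in deficient mice was compared with PBS in deficient mice. Deficient lesions given IL-33 with added PBS were not in this comparison. Their sum was 56.7, 59.8, 276 and 102 CPM, so the direction below is that of IL-33 alone only. The summed level was 1301, 863, 667 and 4536 CPM with IL-33 alone and 625, 628, 198 and 635 CPM with PBS, so the lowest IL-33-alone lesion (667 CPM) was above the highest PBS lesion (635 CPM). This separation depended on the scaling. As a share of unscaled counts, IL-33 replicate 3 had 0.0628%, against 0.0697%, 0.0678%, 0.0218% and 0.0686% in the PBS lesions. No member passed by edgeR or DESeq2 (background 0.00941% by edgeR and 0.0872% by DESeq2), and 5 had an unadjusted p under 0.05. The median log2 fold change was 1.56, with 32 of 32 above 0, and 0.81 without deficient IL-33 replicate 4. For 5 members every IL-33 lesion was above every PBS lesion in scaled CPM, against 2.04% of all genes: Grhl2, Ovol1, Esrp2, Tmprss2 and Rab25. Grhl2, for example, had 19.2, 14.5, 12.1 and 53.5 CPM with IL-33 and 11.6, 8.85, 2.33 and 9.74 CPM with PBS, and the lowest adjusted p of any member was 0.641 (Cdh1, edgeR).

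Among the groups of lesions in deficient mice given IL-33, added PBS had the lowest median sum, although single lesions of other groups were as low. Their sum was 56.7, 59.8, 276 and 102 CPM, against 1301, 863, 667 and 4536 CPM with IL-33 alone. All 32 fold changes were below 0, with a median of -3.94 against 0.01 over all genes, and 31 had an unadjusted p under 0.05. No member passed by edgeR (background 0.0141%), where the lowest adjusted p was 0.0799, shared by Krt7 (-4.20 ± 0.94), Krt19 (-4.39 ± 1.04), Cdh1 (-3.40 ± 0.77) and Spint1 (-2.96 ± 0.70). DESeq2 called 25, all lower, against 3.72% of genes by that tool. For 30 of 32 members, all but Foxa2 and Sox17, the 4 added-PBS lesions were each below the 4 lesions with IL-33 alone, against 5.85% of all genes. Without the liver-transcript library in this comparison, 5 were called (Krt7, Krt19, Cdh1, Esrp2 and Spint1) in the fit that also left out the other 3, and 4 in the fit that left out deficient replicate 2 alone. Without deficient replicate 3, 7 were called. The 11 skeletal muscle genes took 2.63% to 4.62% of counts with added PBS, against 0.435% to 3.85% with IL-33 alone, and their part in the difference was not tested. The labels give both groups the same genotype and IL-33 treatment, and do not say whether they were run together.

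Transfer of 250000 ILC2s into deficient mice was compared with added PBS. The sum was 548, 291, 126.1 and 1085 CPM with ILC2s and 56.7, 59.8, 276 and 102 CPM with added PBS, and the ranges overlapped. No member passed by edgeR or DESeq2 (background 0% by edgeR and 0.0678% by DESeq2), and 12 had an unadjusted p under 0.05. The median log2 fold change was 2.19, with 32 of 32 above 0, and 1.44 without ILC2 replicate 4. Cdh1 had the smallest p (2.05 ± 0.73, edgeR, adjusted p = 0.567), and no member separated the groups, against 2.7% of genes with every ILC2 lesion higher. This comparison shares its added-PBS lesions with the one above. The skeletal muscle list took 0.00916% to 4.69% of counts with ILC2s, against 2.63% to 4.62% with added PBS.

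With 120000 ILC2s the 2 deficient lesions summed to 2944 and 1221 CPM, against 1301, 863, 667 and 4536 CPM with IL-33 alone. The median log2 fold change was 0.09, with 21 of 32 above 0. It turned with single libraries: it was -0.44 (3 of 32 above 0) without ILC2 replicate 1, -0.19 (8 of 32) without deficient IL-33 replicate 2, -0.15 (9 of 32) without replicate 3, -0.03 (13 of 32) without replicate 1 and 0.81 (29 of 32) without replicate 4. Without the liver-transcript libraries it was -0.15. No member passed or had an unadjusted p under 0.05 (edgeR, background 0%; DESeq2 also called none, background 0.0436%). In wild type the sum was 805, 337 and 976 CPM with 120000 ILC2s and 97.0, 208, 411.1 and 442 CPM without. The median was 1.34, with 31 of 32 above 0 (0.68 without ILC2 replicate 1), again with no member called by either tool (background 0% by edgeR and 0.0145% by DESeq2) and none at an unadjusted p under 0.05. Cdh1, Spint1 and Spint2 were higher in each of the 3 ILC2 lesions than in each of the 4 wild type lesions, against 1.86% of all genes. Cdh1 had 63.3, 59.3 and 65.9 CPM with ILC2s and 25.7, 36.0, 38.9 and 37.7 CPM without. Each of these groups holds a liver-transcript library. Without the liver-transcript libraries the median log2 fold change in wild type was 1.30, with 30 of 32 above 0.

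Competent strains were also set against each other. Cre controls and floxed controls had 583, 418, 1194 and 834 and 640.3, 2346, 93.4 and 638 CPM, with a median log2 difference of -0.30 and 8 of 32 above 0. Without floxed control replicate 2 the median was 0.63, with 30 of 32 above 0, so its direction rested on that library. No member was called by edgeR or DESeq2 (background 0.329% by edgeR and 1.1% by DESeq2), and none was at an unadjusted p under 0.05. Wild type lesions had 97.0, 208, 411.1 and 442 CPM (against the Cre and floxed controls just given), with a median log2 difference of -1.76 and 30 of 32 below 0. No member passed by edgeR (background 2.65%), 8 had an unadjusted p under 0.05, and the lowest adjusted p was 0.106 (Spint1). DESeq2 called 3 of them lower (Krt7, Spint1 and St14), against 7.44% of genes by that tool. Wild type is 1 of the 3 groups in the competent average used for the comparison with deficient lesions.

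The comparisons were repeated with the mean log2 CPM of the 32 genes as a covariate. This alternative was chosen after seeing the data. The covariate is the mean of the genes tested, which centres their differences near 0 by construction, so few calls there say nothing about epithelial content. Krt7 then differed by 0.93 between deficient and competent lesions (edgeR, adjusted p = 0.112) and Krt19 by 0.66 (edgeR, adjusted p = 0.292), against 7.22% of all genes called, and no member was called in 10 of the 11 comparisons, where the share of all genes called ran from 0% (added PBS among them) to 10.1% (recipient genotype). In the remaining comparison, wild type against the other competent groups, St14 fell by 1.13 ± 0.28 (edgeR, adjusted p = 0.0261) and was the 1 member called, against 3.02% of all genes. Without the liver-transcript libraries it was -0.90 (edgeR, adjusted p = 0.114). Cdh1 in deficient against Nmur1iCre-eGFP recipients had -0.67 ± 0.34 (edgeR, adjusted p = 0.219), and with 250000 ILC2s against added PBS 1.28 ± 0.46 (edgeR, adjusted p = 0.996). Neither Cdh1 value passed.

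Other epithelial lists held a few called genes in deficient against competent lesions, where 11% of all genes were called. Of 16 further junction genes, 1 rose, Lad1, an anchoring-filament protein (2.06 ± 0.61, edgeR, adjusted p = 0.0263). Of 8 stratified-epithelium genes, 2 rose: Krt13, a suprabasal keratin (3.23 ± 0.86, edgeR, adjusted p = 0.0141), and Sfn (1.17 ± 0.28, edgeR, adjusted p = 0.00711). Of 4 gut genes, 2 fell: Lgals4 (-1.02 ± 0.29, edgeR, adjusted p = 0.0227) and Muc2, a secreted gut mucin (-0.96 ± 0.27, edgeR, adjusted p = 0.0174). None of the 12 uterine lumen and gland genes or the 10 ciliated-cell genes was called. Between recipients, where 11.3% of all genes were called, 1 of the 8 stratified, 1 of the 4 gut and 1 of the 11 mesothelial genes was called. Krt10 rose by 0.98 ± 0.21 (edgeR, adjusted p = 0.00200), Muc2 fell by 1.23 ± 0.22 (edgeR, adjusted p = 0.000479) and the mesothelial gene Lrrn4 fell by 1.43 ± 0.46 (edgeR, adjusted p = 0.0413). Some of the genes named here were at low level in every library. Krt10 was 0.193 to 0.954 CPM, Krt13 0 to 4.13 CPM and Muc2 0.613 to 4.18 CPM.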

How the data were processed

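Bulk RNA sequencing of 41 mouse lesions in 11 groups was used. The authors deposited raw counts per gene. Per the submitters' processing notes, Trimmomatic, STAR, HTSeq, edgeR and limma were used with build GRCm38; no version, annotation or strand setting is stated there. Samples were grouped by the titles. The smallest total of any gene over the libraries was 411, so genes with low totals had been left out, by a rule not stated. Counts (28884926 to 70526624 per library) were fitted in edgeR 4.0.16 (R 4.3.3) with trimmed-mean scaling, 11 group means and a robust quasi-likelihood F-test, two-sided, Benjamini-Hochberg adjusted over 21249 genes at 0.05. DESeq2 1.42.0 was an alternative. Log2 CPM used a prior count of 2; positions and exon lengths came from GENCODE M21. Deviations from group means did not pair equal replicate numbers (mean r 0.014). The fit was tested on simulated data. The members and the gene lists were chosen with earlier results of these data known. Values in every library are given for members called in a comparison, for Epcam, Cdh1 and Krt8, and for the 6 that followed the others least by SD of the difference and the 6 by r. From other lists, called genes are named, at most 4 per list and comparison, for epithelial and mesothelial lists.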

Additional observations from a re-analysis of the deposited data

Results flagged for a closer look

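In groups of 4 libraries, each set of values given in every library was checked for a library far from the other 3 on the log2 scale, and 10 sets were marked. Chance marks about 1 in 20 such sets, and genes that move together are marked together. PBS-treated deficient replicate 3 accounted for 5 of the 10: its summed level was 198 CPM against 625 to 635 CPM in the other 3, Krt19 was 21.6 CPM against 34.8 to 37.6, Cdh1 was 16.8 CPM against 39.8 to 45.3, Pax8 was 3.96 CPM against 11.8 to 13.7, and Esrp2 was 2.12 CPM against 3.75 to 4.12. Floxed control replicate 3 had Wfdc2 at 0.0937 CPM against 23.7 to 61.2 CPM, and Foxa2 at 0 against 0.384 to 0.626 CPM. Wild type replicate 1 had Wfdc2 at 0.381 CPM against 5.48 to 7.53 CPM. The deficient fragment in an Nmur1iCre-eGFP recipient of replicate 1 had Cdh1 at 20.9 CPM against 65.0 to 72.1 CPM. The Nmur1iCre-eGFP fragment in a deficient recipient of replicate 1 had Cldn10 at 1.40 CPM against 3.32 to 3.88 CPM. In all 10 the marked library was the low one of its group.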

How the results depend on the processing

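Counts of members called moved by more than 1.5 times as follows, and the fold changes of Krt7 and Krt19 kept their sign. For deficient against competent lesions the count was 2 as reported, 0 with the replicate block, 0 with only the groups compared in the fit, 1 without the liver-transcript libraries, 4 by DESeq2, 0 with the mean of the members as covariate and 0 with that covariate without the liver-transcript libraries. It ranged from 0 to 8 when 1 library was left out at a time. For added PBS against IL-33 alone the count was 0 as reported, 5 without the liver-transcript libraries, 25 by DESeq2, and 0 to 7 with 1 library left out. For recipient genotype it was 0 as reported, 3 by DESeq2, and 0 to 2 with 1 library left out. For wild type against the other competent groups it was 0 as reported, 3 by DESeq2 and 1 with the covariate. In the other 7 comparisons the count stayed at 0 under every alternative run. The cause of these shifts was not tested. Equal replicate numbers did not pair the libraries: same-numbered libraries of different groups had a mean r of 0.014 (-0.745 to 0.860), different numbers 0.00544, and 17.1% of libraries matched best with their own number. The block changed no other call. The median fold change of the members, with no test, changed sign with 1 library left out in 3 comparisons: Cre against floxed controls (-0.30 as reported, -0.69 to 0.63), 120000 ILC2s in deficient mice (0.09, -0.44 to 0.81) and fragment genotype (0.02, -0.56 to 0.61).

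Scaling by DESeq2 size factors, and leaving out genes with a mean under 1 CPM, changed no count beyond 1.5 times. Without the liver-transcript libraries, the SD of a member's difference from the mean of the others changed most for Foxa2, Esrp2 and Cldn3. It was 1.11 against 1.82 for Foxa2, 0.73 against 1.24 for Esrp2 and 0.45 against 0.91 for Cldn3. Groups hold 2 to 4 libraries and the spread within them was wide: the median SE of the members' log2 fold changes was 0.83 for deficient against competent and 1.23 for added PBS against IL-33 alone. For genes near 0, such as Foxa2 and Ovol1, fitted fold changes depend on the prior count.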

Other observations

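Some genes outside the list followed it closely. Dlx5 and Dlx6, neighbouring homeobox genes that are known to act in uterine epithelium of the mouse, reached 29.9 and 12.3 CPM at most and had r of 0.97 and 0.98 with the mean of the 32 genes. Plet1, a membrane-anchored protein of epithelia, spanned 0.357 to 587 CPM (r = 0.97), and Fut2, a fucosyltransferase of epithelial surfaces, spanned 0 to 123 CPM (r = 0.98). Cxcl17, a mucosal chemokine, spanned 0.0297 to 36.8 CPM (r = 0.97). Ltf, from the list of uterine lumen and glands, ranged from 2.20 to 2804 CPM, and Pigr, the receptor that carries immunoglobulin across epithelia, from 0 to 2726 CPM (r = 0.88). In the same list Slpi ran the other way (r = -0.38) and Lgr5 did not follow (r = 0.18). These coefficients are over 41 libraries that share depth and scaling, and describe the pattern.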
